A study of Mus musculus with 5 samples.

Results

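The 10 genes described here are the pigment-cell genes of the melanoma itself: Mlana, Pmel, Tyr, Tyrp1, Dct, Mitf, Slc45a2, Oca2, Gpr143 and Mc1r. They were chosen by name, as genes of the melanosome and as melanoma antigens that T cells can recognise, with earlier results of these data known. All 10 had a probe set (called probe below) with a gene name, each gene had 1 such probe, and together they make 10 of 19505 named genes and 10 of 22203 probes. RNA came from whole subcutaneous tumours of the B16.F10 mouse melanoma line, here carrying luciferase and green fluorescent protein, grown in wild-type C57BL/6 mice aged 10 weeks. In the first group, 3 mice received anti-PD-1, an antibody against an inhibitory receptor of T cells, together with oral RG7112, a small molecule that keeps MDM2 from binding p53. In the second group, 2 mice received anti-PD-1 together with oral vehicle, corn oil with 5% DMSO. In both groups anti-PD-1 was injected on days 1, 4 and 8, RG7112 or vehicle was given every 2 days over 6 days, and the mice were sampled on day 13. The labels state no dose of RG7112, both groups carry anti-PD-1, and every tumour grew from the same cell line, so the comparison speaks for that line under anti-PD-1. RG7112 tumours are numbered 1, 2 and 3 and vehicle tumours 3 and 4, 1 array each, and the shared number does not pair them.

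Melanin is made inside melanosomes, organelles of pigment cells related to lysosomes. Pmel forms the fibrils on which melanin is laid down, Tyr catalyses the first and rate-limiting step from tyrosine, and Dct and Tyrp1 act on later intermediates. The transcription factor Mitf drives most of these genes in melanocytes and melanomas. Because the proteins are largely restricted to pigment cells, several of them (Pmel, known as gp100, Mlana, known as MART-1, Tyr, Tyrp1 and Dct, known as TRP-2) are targets of T cells in melanoma, and melanoma cells that lose them can escape such T cells.

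Mitf binds short DNA words, among them CATGTG, and the promoters of the tyrosinase family show how far the members share it. RefSeq sequences (mouse assembly GRCm38.p6, 250 bases before to 50 bases after an annotated start) were held for 6 of the 10 members, in 8 windows, because Mitf has several starts. The windows of the enzymes Tyr, Tyrp1 and Dct and of 1 Mitf start are printed 5′ to 3′ on the gene's strand, with CATGTG, or CACATG when it lies on the opposite strand, and the cAMP response element TGACGTCA in capitals.

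Tyr, chr7:87493463-87493762, minus strand: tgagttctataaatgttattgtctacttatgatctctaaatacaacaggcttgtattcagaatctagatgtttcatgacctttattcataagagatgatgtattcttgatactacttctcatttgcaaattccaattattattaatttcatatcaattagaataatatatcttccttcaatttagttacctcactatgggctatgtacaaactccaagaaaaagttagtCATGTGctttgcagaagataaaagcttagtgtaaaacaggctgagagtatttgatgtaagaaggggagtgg
Tyrp1, chr4:80833963-80834262, plus strand: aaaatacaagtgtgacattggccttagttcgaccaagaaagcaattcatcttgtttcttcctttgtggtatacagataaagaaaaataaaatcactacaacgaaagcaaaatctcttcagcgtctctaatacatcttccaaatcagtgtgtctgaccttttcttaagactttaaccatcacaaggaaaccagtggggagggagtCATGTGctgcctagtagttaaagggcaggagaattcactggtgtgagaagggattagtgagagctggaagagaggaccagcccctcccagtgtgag
Dct, chr14:118052197-118052496, minus strand: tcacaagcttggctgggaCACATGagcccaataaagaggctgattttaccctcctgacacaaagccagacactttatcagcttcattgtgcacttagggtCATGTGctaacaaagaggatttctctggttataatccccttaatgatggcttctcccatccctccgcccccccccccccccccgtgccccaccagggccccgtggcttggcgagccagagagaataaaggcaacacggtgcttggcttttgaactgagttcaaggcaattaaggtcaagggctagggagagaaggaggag
Mitf, chr6:97991533-97991832, plus strand: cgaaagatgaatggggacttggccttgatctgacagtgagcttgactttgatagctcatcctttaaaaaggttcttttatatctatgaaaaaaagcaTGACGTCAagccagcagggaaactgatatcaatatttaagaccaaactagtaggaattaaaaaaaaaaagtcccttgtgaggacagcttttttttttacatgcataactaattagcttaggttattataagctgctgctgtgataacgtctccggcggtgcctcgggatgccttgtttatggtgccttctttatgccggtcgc

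CATGTG, read on both strands, was in 5 of the 8 windows (those of Tyr, Tyrp1, Dct, Oca2 and Mc1r), against 14.2% of the 32851 promoter windows of all genes. The longer word TCATGTG, which contains CATGTG, was in 4 of the 8 (Tyr, Tyrp1, Dct and Mc1r), against 3.77% of all windows. CATGTG began 21 bases before the start in Tyr, 46 bases before it in Tyrp1 and 150 bases before it in Dct, and in all 3 the next bases were CT. Dct held another copy on the opposite strand, 232 bases before its start. The other Mitf-type word, CACGTG, which does not overlap these, was in 0 of the 8 windows, against 7.15% of all windows. TGACGTCA was in 1 of the 8, the Mitf window printed, against 1.79% of all windows. These matches describe letters in the windows and were not tested as binding sites. Mlana, Pmel, Slc45a2 and Gpr143 are named only.

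The values are log2 signals, so a difference of 1 is a 2-fold change, and the probes of the tumour's own lineage were bright. Of the 10 members, 8 had a mean signal of 10 or above and 4 of 12 or above, while the medians of the arrays lay between 5.76 and 5.81 and the highest value on any array was 13.3. Sox10, the lineage factor that acts on Mitf, was at 10.5, 10.3 and 10.4 in RG7112 tumours, against 10.2 and 10.5 in vehicle tumours, each above the median of its array. A signal depends on its probe as well as on the RNA, so a brighter probe is not read here as a higher RNA level.

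Adding RG7112 was compared with vehicle to ask whether the tumours' lineage genes and T cell target antigens changed. In limma, with Benjamini-Hochberg adjustment over all 22203 probes, 0 of the 10 members passed an adjusted p of 0.05 (smallest adjusted p = 0.511), beside 1.45% of all probes called, 1.42% higher and 0.0315% lower. At an unadjusted p under 0.05 in limma, 2 members were higher (Oca2 and Gpr143) and 0 lower, beside 4.83% of all probes higher and 4.06% lower. That count of 2 became 1 without RG7112 tumour 2 or 3 and 0 without RG7112 tumour 1 or either vehicle tumour, and the 315 probes called higher over the whole array became 151 without vehicle tumour 3 and 65 without vehicle tumour 4. The difference, RG7112 minus vehicle, was above 0 in 8 members and below 0 in 2, and its median over the members was 0.10, while over all probes 44.8% were above 0 and the median was -0.03. The groups did not overlap in 4 members, each higher with RG7112, beside 10.8% of all probes; in 0 members did they separate in the other direction, beside 14% of all probes. With 3 tumours against 2, an exact permutation test has 10 splits and cannot give a p below 0.1.

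**Figure D1:**
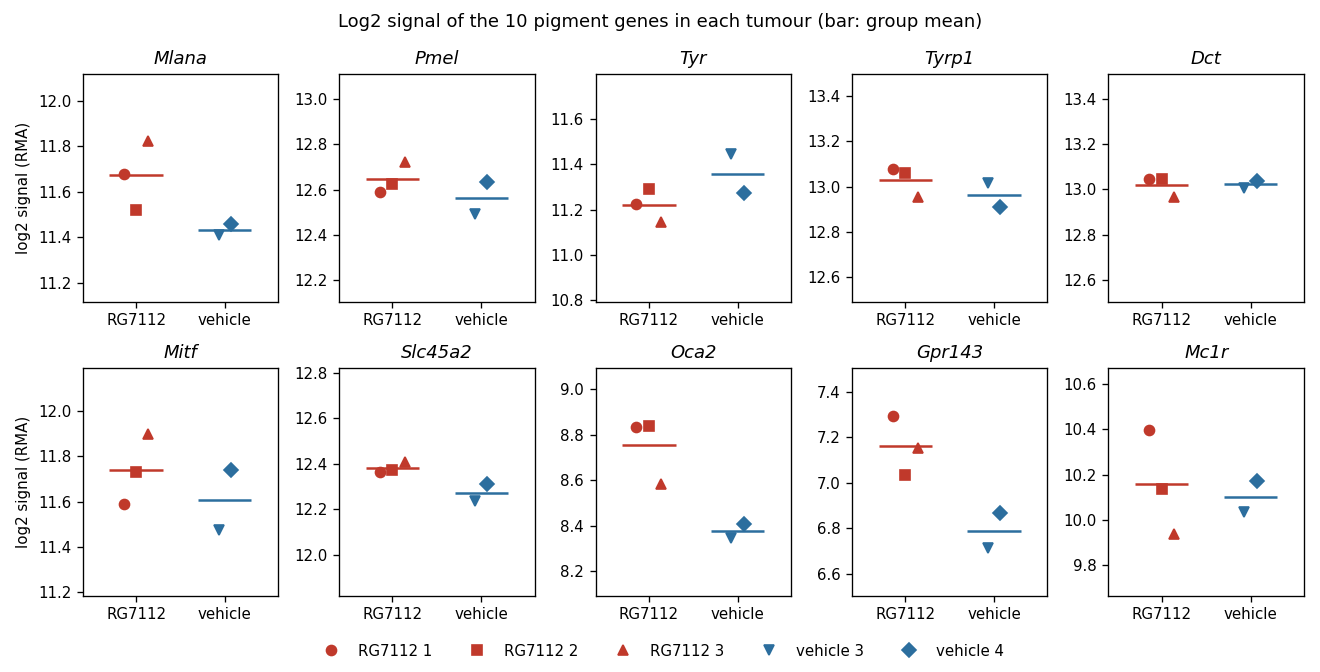
Log2 RMA signal of the 10 genes, 1 panel each, in RG7112 tumours 1, 2 and 3 (red) and vehicle tumours 3 and 4 (blue); bars are group means and every panel spans 1 log2 unit. Mlana, Slc45a2, Oca2 and Gpr143 have all RG7112 tumours above both vehicle tumours, and in the other 6 genes the groups overlap.

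Of the enzymes of melanin synthesis, Dct and Tyrp1 were among the 3 members with differences nearest 0, beside Mc1r. Dct, the tautomerase of the pathway, was at 13.05, 13.05 and 12.97 in RG7112 tumours, against 13.01 and 13.04 in vehicle tumours. All 5 tumours lay within 0.08 of each other, and the vehicle values fell inside the range of the RG7112 values. Its difference was -0.0027 ± 0.15 (SE), with a 95% interval of -0.34 to 0.33 (limma adjusted p = 0.997). Tyrp1, which oxidises a late intermediate in the mouse, was at 13.08, 13.06 and 12.95 in RG7112 tumours, against 13.02 and 12.91 in vehicle tumours. The groups overlapped, since RG7112 tumour 3 lay below vehicle tumour 3. The Tyrp1 difference was 0.07 ± 0.15, with an interval of -0.27 to 0.40 (limma adjusted p = 0.953).

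Tyr, the rate-limiting enzyme, had the lowest difference of the 10. It was at 11.22, 11.29 and 11.15 in RG7112 tumours, against 11.44 and 11.27 in vehicle tumours. RG7112 tumours 1 and 3 lay below both vehicle tumours, but RG7112 tumour 2 lay above vehicle tumour 4. The difference was -0.14 ± 0.16, or 0.908-fold, with an interval of -0.48 to 0.21 (limma adjusted p = 0.882). Leaving out each tumour in turn gave -0.23 to -0.05, all below 0 and none called, and the value nearest 0 came without vehicle tumour 3.

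Among the structural proteins that are also antigens, Mlana had the larger difference. Mlana, a small membrane protein that works with Pmel in early melanosomes, was at 11.68, 11.52 and 11.82 in RG7112 tumours, against 11.41 and 11.46 in vehicle tumours. All 3 RG7112 tumours lay above both vehicle tumours, the closest pair 0.06 apart. Its mean was 11.7 ± 0.15 with RG7112 (SD, n = 3) and 11.4 ± 0.03 with vehicle (SD, n = 2), and the interval of its difference ran from -0.12 to 0.60 (limma adjusted p = 0.757). Pmel was at 12.59, 12.62 and 12.72 in RG7112 tumours, against 12.49 and 12.63 in vehicle tumours. Vehicle tumour 4 lay above RG7112 tumours 1 and 2, so the groups overlapped. The Pmel difference was 0.08 ± 0.15, with an interval of -0.26 to 0.42 (limma adjusted p = 0.936).

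Mitf, the factor that acts on the others, was at 11.59, 11.73 and 11.90 in RG7112 tumours, against 11.48 and 11.74 in vehicle tumours. The vehicle tumours alone differed by 0.26, which is more than the group difference of 0.13 ± 0.17 (interval -0.24 to 0.50, limma adjusted p = 0.905). Without vehicle tumour 3 the Mitf difference was -0.0016 and without vehicle tumour 4 it was 0.26, so its direction rests on 1 vehicle tumour. Mitf isoforms, which start from different promoters in melanocytes and in other cells, were not separated here.

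Both melanosomal transporters had groups that did not overlap. Slc45a2, a membrane transporter needed for normal melanosome pH, was at 12.36, 12.37 and 12.41 in RG7112 tumours, against 12.23 and 12.31 in vehicle tumours. The RG7112 tumours lay within 0.04 of each other, and the gap to the nearer vehicle tumour was 0.05. The Slc45a2 difference was 0.11 ± 0.15, or 1.08-fold, with an interval of -0.22 to 0.44 (limma adjusted p = 0.911; exact permutation p = 0.1, two-sided). Oca2, the protein mutated in pink-eyed dilution mice and a regulator of melanosome ion balance, had the largest difference of the 10. It was at 8.84, 8.84 and 8.58 in RG7112 tumours, against 8.35 and 8.41 in vehicle tumours. RG7112 tumours 1 and 2 lay together and tumour 3 lay between them and the vehicle tumours. The Oca2 difference was 0.38 ± 0.16, or 1.30-fold, with an interval of 0.02 to 0.73 (limma unadjusted p = 0.0387, adjusted p = 0.511; exact permutation p = 0.2, two-sided).

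The receptors differed from each other in pattern. Gpr143, the receptor of the melanosome membrane that is mutated in ocular albinism, was at 7.29, 7.03 and 7.15 in RG7112 tumours, against 6.71 and 6.86 in vehicle tumours. All RG7112 tumours lay above both vehicle tumours. The Gpr143 difference was 0.37 ± 0.16, or 1.29-fold, with an interval of 0.02 to 0.73 (limma unadjusted p = 0.0414, adjusted p = 0.521; exact permutation p = 0.1, two-sided). Gpr143 and Oca2 were also the members with the dimmest probes. Mc1r, the melanocortin receptor at the cell surface that raises cAMP and so Mitf, was at 10.40, 10.14 and 9.94 in RG7112 tumours, against 10.04 and 10.17 in vehicle tumours. The highest and the lowest of the 5 Mc1r values were both in RG7112 tumours. The Mc1r difference was 0.05 ± 0.18 (interval -0.34 to 0.44, limma adjusted p = 0.969), and it was -0.07 without RG7112 tumour 1 and -0.01 without vehicle tumour 3.

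**Figure D2:**
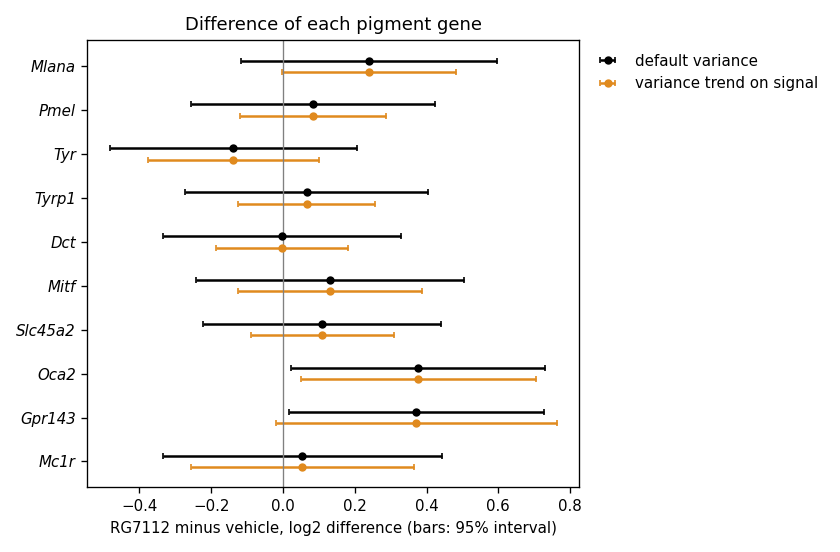
Log2 difference of each gene, RG7112 minus vehicle, with its 95% interval from limma, with the default prior variance (black) and with a prior that follows the signal (orange). In both fits the Oca2 interval lies above 0, the Gpr143 interval does so with the default prior alone, and no gene passes after adjustment.

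The intervals set how large a change in signal these 5 arrays could have missed. Over the 10 members the lower bounds ran down to 0.716-fold (Tyr) and the upper bounds up to 1.66-fold (Oca2). With limma's default prior, a signal below 0.716 of the vehicle signal therefore lay outside every interval, each taken for its gene alone. limma's default prior takes 1 spread for all probes, and the residual SD of the members, 0.04 to 0.20, was below the median of all probes, 0.18, in all members except Mc1r. With a prior that follows the signal, the intervals narrowed to -0.19 to 0.18 for Dct, -0.12 to 0.26 for Tyrp1, -0.12 to 0.29 for Pmel and -0.0023 to 0.48 for Mlana (adjusted p from 0.584 to 0.996), while that of Gpr143 widened to -0.02 to 0.76, up to 1.70-fold, and 1 member, Oca2, kept an unadjusted p under 0.05. The brightest probes moved little as a group. Of the 77 probes with a mean signal of 12 or above, which include Tyrp1, Dct, Pmel and Slc45a2, 0 were called in limma and 1 had an unadjusted p under 0.05, and their median absolute difference was 0.05, against 0.14 over all probes. Only 7 probes had a higher mean than Dct and 8 than Tyrp1. Whether signals this near the top of the scale respond less to a change in RNA was not tested.

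Across tumours the members did not move as 1 block. Of the 30 values in RG7112 tumours, 23 lay above their gene's vehicle mean. These values come from 3 tumours and are not separate observations, and the share over all probes was not computed. RG7112 tumour 3 held the highest value of 4 members (Mlana, Pmel, Mitf and Slc45a2) and the lowest of 3 (Tyr, Dct and Mc1r). Vehicle tumour 3 held the lowest value of 6 members and the highest of Tyr. The mean over the members' log2 signals was 11.21, 11.17 and 11.16 in RG7112 tumours, against 11.02 and 11.08 in vehicle tumours, a range of 0.19 over all 5. In whole tumours, fewer cells of a type and less RNA per cell cannot be told apart, and this mean weighs both.

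The other genes of the pigment pathway were read from lists of known function. Of 27 genes of melanosome biogenesis and transport, 0 were called in limma (1 higher and 0 lower at an unadjusted p under 0.05), and the median difference was 0.03. The exception at the unadjusted level was Bace2, the protease that cleaves Pmel so that its fibrils can form, at 9.61, 9.48 and 9.59 in RG7112 tumours, against 8.86 and 8.95 in vehicle tumours. All RG7112 tumours lay above both vehicle tumours, with a difference of 0.65 ± 0.15 (limma adjusted p = 0.0805), and with the prior that follows the signal it was called (adjusted p = 0.0195). Myo5a, the motor that carries melanosomes, and Mlph, its adaptor, differed by 0.30 ± 0.16 and 0.28 ± 0.15 and did not pass (limma adjusted p = 0.645 and 0.666).

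Of 13 genes of melanosome ion transport and melanin chemistry, 0 were called in limma (0 higher and 1 lower at an unadjusted p under 0.05), with a median difference of 0.10. The one below was Slc7a11, the cystine importer that supplies pheomelanin synthesis and glutathione and a gene known to be repressed by p53, at 6.76, 6.85 and 6.61 in RG7112 tumours, against 7.32 and 7.24 in vehicle tumours. All RG7112 tumours lay below both vehicle tumours, and the difference was -0.54 ± 0.16 (limma adjusted p = 0.200). A part of p53 in the Slc7a11 difference was not tested. Of 10 MITF regulators, 0 were called in limma (2 higher at an unadjusted p under 0.05), with a median of 0.02. They were Ednrb, the endothelin receptor of melanoblasts, which endothelial cells also make, with 0.63 ± 0.17 (adjusted p = 0.157), and the receptor Kit, which mast cells also carry, with 0.57 ± 0.23 (adjusted p = 0.482; 0.13 without vehicle tumour 3 and 1.01 without vehicle tumour 4). Of 15 other MITF targets, 0 were called in limma (1 higher at an unadjusted p under 0.05), with a median of 0.06. That gene was Ctsk, a cathepsin of osteoclasts and stroma too, with 0.57 ± 0.21 (adjusted p = 0.410), while the receptor kinase Met and the coactivator Ppargc1a differed by 0.35 ± 0.17 and 0.33 ± 0.16 (adjusted p = 0.595 and 0.606).

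Of 18 genes of MC1R and cAMP signalling, 0 were called in limma (2 higher at an unadjusted p under 0.05), with a median of -0.0089. Sik1, a kinase induced by cAMP that holds back CREB coactivators, was at 8.61, 8.51 and 8.96 in RG7112 tumours, against 7.79 and 8.12 in vehicle tumours. Its groups did not overlap, and the difference was 0.74 ± 0.19 (limma adjusted p = 0.112; 0.0495, a call, with the prior that follows the signal). The phosphodiesterase Pde4b, which breaks down cAMP and is also made by leukocytes, differed by 0.39 ± 0.16 (adjusted p = 0.485).

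Markers of a dedifferentiated melanoma state, in which pigment genes are typically low, did not move together. Of 12 such genes 1 rose, 0 fell and 11 did not pass in limma, with a median of -0.03. The gene that rose was Axl, a receptor kinase that macrophages also make, at 9.19, 9.37 and 9.49 in RG7112 tumours, against 8.20 and 7.89 in vehicle tumours. Its difference was 1.30 ± 0.17 (limma adjusted p = 0.00269), and the call was lost without vehicle tumour 4 (1.15, adjusted p = 0.0979). Sox2 and the intermediate filament Nes differed by -0.65 ± 0.16 and -0.45 ± 0.16 (limma adjusted p = 0.115 and 0.383). The nerve growth factor receptor Ngfr differed by 0.03 ± 0.16 (limma adjusted p = 0.983). The Sox2 probe was dim, at 3.59, 3.75 and 3.62 in RG7112 tumours, against 4.45 and 4.15 in vehicle tumours. The medians of the arrays lay between 5.76 and 5.81. Of 18 melanoma antigens outside the pigment pathway, among them cancer-testis genes and surface proteins, 0 were called in limma and 0 had an unadjusted p under 0.05. Their differences ran from -0.36 (Tert) to 0.39 (Magea4). Their mean level was 5.02, 5.01 and 5.04 in RG7112 tumours, against 5.05 and 5.10 in vehicle tumours, below the median of each array. Magea4 was at 4.02, 3.56 and 3.39 in RG7112 tumours, against 3.15 and 3.39 in vehicle tumours. Whether probes this dim respond to a change in RNA was not tested.

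**Figure D3:**
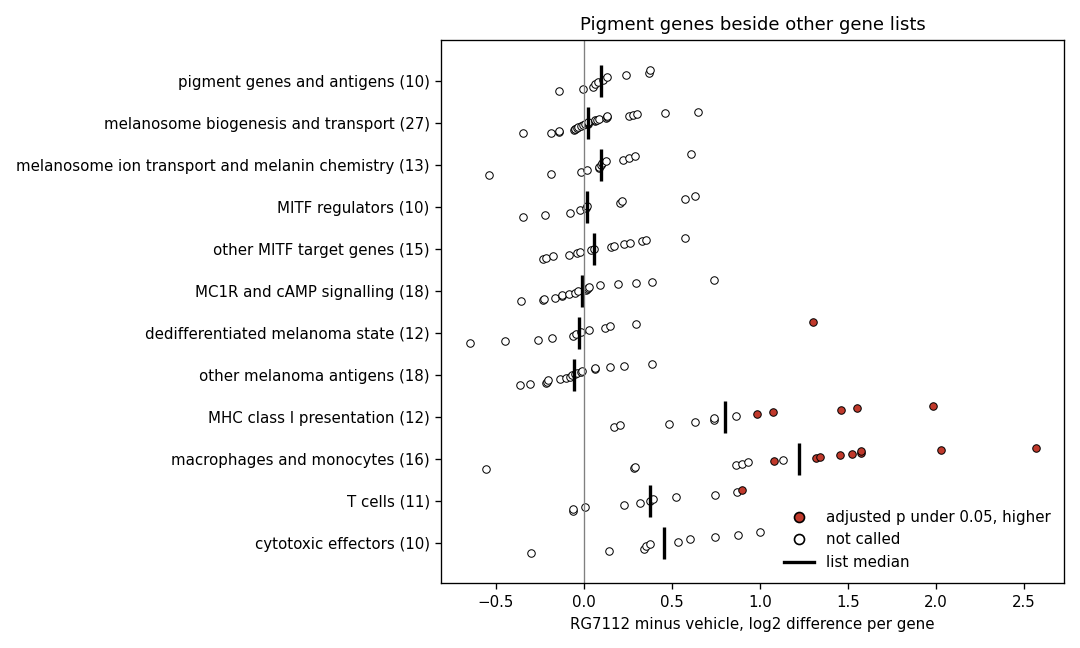
Log2 difference of each gene, RG7112 minus vehicle, for the pigment genes and for 11 other lists, with the number of measured genes in brackets; filled points passed an adjusted p of 0.05 in limma and black bars are list medians. The pigment genes lie between -0.14 and 0.38, and filled points appear in the lists of the dedifferentiated state, MHC class I, macrophages and T cells.

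The genes that present such antigens and the cells that could recognise them stood beside these values. Of 12 genes of MHC class I presentation 5 rose, 0 fell and 7 did not pass in limma, with a median difference of 0.80, and the count was 3 without vehicle tumour 3, 0 without vehicle tumour 4 and 9 with the prior that follows the signal. Tap1, which carries peptides to class I molecules, rose by 1.55 ± 0.19 (adjusted p = 0.00184; 0.0570 without vehicle tumour 4), and the PD-1 ligand Cd274 rose by 1.54 ± 0.26 (adjusted p = 0.0122; not called without RG7112 tumour 2, adjusted p = 0.0513, or without vehicle tumour 4, adjusted p = 0.267). Cd8a, the CD8 T cell coreceptor, was at 6.89, 6.10 and 6.02 in RG7112 tumours, against 5.62 and 5.30 in vehicle tumours, and did not pass (0.87 ± 0.25, adjusted p = 0.184). At an unadjusted p under 0.05 in limma, 10 of the 12 class I genes were higher and 0 lower. Of 10 genes of cytotoxic effectors, 5 were higher and 0 lower at that level. Over all probes the shares were 4.83% higher and 4.06% lower. Differences between these lists and the pigment genes were not tested.

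Markers of cells other than melanoma moved as follows, and their part in the members' values was not tested. Of 16 macrophage and monocyte markers 9 rose, 0 fell and 7 did not pass in limma (1 rose without vehicle tumour 4), and their mean level was 7.24 to 7.64 in RG7112 tumours, against 6.11 and 6.45 in vehicle tumours. Of 11 T cell markers 1 rose (Cd8b1, 0.90 ± 0.18, adjusted p = 0.0314), a call lost whichever tumour was left out (adjusted p from 0.0566 to 0.425), with mean levels of 5.19 to 5.30 in RG7112 tumours, against 4.81 and 4.88 in vehicle tumours. Endothelial and fibroblast markers had median differences of 0.32 and 0.26, with 1 of 9 and 0 of 9 called, and the endothelial count was 0 without RG7112 tumour 2 or 3 or either vehicle tumour. Keratinocyte markers, which would come with host skin and its own melanocytes, had mean levels of 4.14 to 4.37 in RG7112 tumours, against 4.37 and 4.42 in vehicle tumours. Of these markers, 0 of 10 were called in limma (0 higher and 1 lower, Krt14, at an unadjusted p under 0.05). Krt14 was at 4.90, 5.72 and 5.42 in RG7112 tumours, against 5.81 and 6.08 in vehicle tumours (limma adjusted p = 0.423). Of the p53 pathway, Mdm2 differed by 0.34 ± 0.21 and Cdkn1a by -0.11 ± 0.17 (adjusted p = 0.738 and 0.924), and with a tumour left out these ran from 0.15 (without RG7112 tumour 1) to 0.54 (without RG7112 tumour 3) and from -0.23 (without RG7112 tumour 1) to -0.0027 (without vehicle tumour 3).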

How the data were processed

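Whole-tumour RNA with a quality number above 9 was hybridised to Affymetrix Clariom S mouse arrays, 1 per tumour. The deposited values are log2 signals, made with oligo and RMA per the submitters' processing notes; for versions, options and genome build the sources used here say nothing. Array batches were not examined. Of 22203 probes, 19572 carried 1 gene symbol, 0 several and 2631 none; the probe with the highest mean stood for a gene. RG7112 minus vehicle was fitted on all probes in R 4.3.3 with limma 3.58.1 (lmFit, eBayes, Benjamini-Hochberg over 22203 probes, call at adjusted p under 0.05; 3 residual and 7.92 prior degrees of freedom). Mice are separate animals, and the number of arrays limits the precision. The fit was tested on simulated data. These were drawn from limma's own model, without array or tumour effects, and held changes larger than any member's difference. They do not speak for changes of the members' size.

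The members and lists were chosen with earlier results of these data known. Named genes are the 10 members, the fixed set Mdm2, Cdkn1a, Cd8a, Cd274 and Ngfr, and up to 4 genes per list with the smallest unadjusted p. Sox10 is named as a fixed lineage marker. B2m is named as a bright probe with a low unadjusted p, and Cd163 as the macrophage marker below 0. Lists of neutrophils, B cells, skeletal muscle and adipocytes had median differences of 0.12, -0.16, -0.07 and 0.24, with 0, 0, 0 and 1 member called, and those of cytotoxic effectors 0.45, with 0 called. Mean levels of skeletal muscle markers varied between tumours, at 6.788, 6.535 and 5.423 in RG7112 tumours, against 5.975 and 6.367 in vehicle tumours. Those of adipocyte markers were 4.937, 5.413 and 5.971 in RG7112 tumours, against 4.966 and 4.925 in vehicle tumours. The part of these tissues in the members' values was not tested. List genes without a named probe were not analysed here. Promoter windows are RefSeq's; they were matched by symbol.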

Additional observations from a re-analysis of the deposited data

How the results depend on the processing

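The fit was repeated with a prior that follows the signal, a robust prior, array weights, no moderation of the variance, 3 further normalizations, no dim probes (below the 40th percentile), 1 probe or the mean probe per gene, adjusted p under 0.10, at least 1.5-fold, and 1 tumour fewer. Settings that alter only the variance, the threshold or the probes kept leave each difference as it was, so its direction could not change there. Each member has 1 probe, so the mean probe repeats the members' main values. The 1.5-fold minimum cannot add a call. The members' call did not change in any of 170 recomputed values: 0 of 10 were called throughout (smallest adjusted p = 0.343), 161 kept their direction and 9 did not. Dct turned above 0 with array weights (0.0019), quantile normalization (0.0175), cyclic loess (0.0075) and median centring (0.0095), and ran from -0.017 to 0.0244 with a tumour left out. With a tumour left out Mitf ran from -0.0016 to 0.26, Mc1r from -0.067 to 0.16, Ngfr from -0.0296 to 0.0753 and Sox10 from -0.13 to 0.15; Sox10 was at -1e-04 with array weights, -0.0064 with quantile normalization and -0.0063 with cyclic loess. The 2 members with an unadjusted p under 0.05 became 0 with quantile normalization and without RG7112 tumour 1 or either vehicle tumour, 1 with a prior that follows the signal or without RG7112 tumour 2 or 3, and 3 without moderation. Over all probes, 315 were called higher and 7 lower; with a tumour left out these ran from 65 to 268 and from 0 to 5. Without moderation 0 were called higher and 0 lower (865 and 748 at an unadjusted p under 0.05). The lower count was 16 with array weights, 4 with cyclic loess, 2 without dim probes and 29 at adjusted p under 0.10. The causes were not tested. A lone vehicle tumour is assumed to vary like the RG7112 tumours. No paired analysis was possible because the groups share only replicate number 3.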
